A study of Neurospora crassa with 2 samples.

Results

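The genes described here are 6 genes of the filamentous fungus *Neurospora crassa* whose annotations name enzymes of tryptophan breakdown and of tyrosine breakdown. They were picked, among 9730 genes, for being higher in a strain lacking *gul*-*1* than in wild type (WT), so that their ratios between the strains are a description of the choice and not a finding. For tryptophan they are the indoleamine 2,3-dioxygenase genes NCU09184 and NCU01402 and the kynureninase gene NCU09183. For tyrosine they are NCU01830 (4-hydroxyphenylpyruvate dioxygenase), NCU05499 (homogentisate 1,2-dioxygenase) and NCU05537 (fumarylacetoacetase).

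The data are RNA-seq counts and RPKM values (reads per exon length, scaled to the depth of the library) from 2 libraries, 1 of Δ*gul*-*1* and 1 of WT. *gul*-*1* encodes an mRNA binding protein. Δ*gul*-*1* is a deletion strain, the WT strain came from the Fungal Genetics Stock Center, and the sources used here do not say which isolate of the deletion was sequenced. Both strains were grown in liquid culture for 3 days at 25 °C in constant light, with 2% Avicel (crystalline cellulose), 0.75% yeast extract and 0.2% Tween 80. Each strain had 1 library and no replicate, so no p-value is given, and a difference between libraries cannot be told apart from a difference between single cultures. The intervals given with ratios are exact 95% intervals from the reads and cover counting error only.

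In the kynurenine route, indoleamine 2,3-dioxygenase opens the indole ring of tryptophan, and the product is converted to kynurenine. Kynureninase, which releases alanine, splits kynurenine or, on the way to NAD, kynurenine that has first been hydroxylated. In the tyrosine route an aminotransferase removes the amino group, 4-hydroxyphenylpyruvate dioxygenase makes homogentisate, homogentisate 1,2-dioxygenase opens its ring, and after an isomerization fumarylacetoacetase splits the product into fumarate and acetoacetate. Filamentous fungi can use aromatic amino acids as sources of nitrogen and carbon, and yeast extract supplies amino acids to a culture.

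The Δ*gul*-*1* library held 20341292 reads assigned to genes and the WT library 20461987, with at least 1 read in 9119 and 9065 genes. *gul*-*1* itself (NCU01197, chromosome V, bases 3209437 to 3214882) had 304 reads and 2.89 RPKM in Δ*gul*-*1*, against 21537 reads and 203.7 RPKM in WT, so that the deletion was seen in the library labelled with it. Genes with more than 20 RPKM in at least 1 library, 4409 in number, were compared, and those with a ratio of Δ*gul*-*1* to WT of 2 or more are called higher, those with 0.5 or less lower. By this rule 171 genes (3.88%) were higher and 116 (2.63%) were lower. With the libraries scaled by TMM, which multiplies every ratio by 0.901 (a shift of -0.15 on the log2 scale), the split was 137 higher and 151 lower. The cellulase genes *cbh*-*1* and *gh6*-*2*, which mark growth on cellulose, were at 2124 and 3539 RPKM in Δ*gul*-*1* and at 2173 and 3480 RPKM in WT.

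Each of the 6 breakdown genes was above 20 RPKM in Δ*gul*-*1* and under 12 RPKM in WT. NCU09184, an indoleamine 2,3-dioxygenase gene (chromosome III, bases 281000 to 282805), had 1243 reads and 35.6 RPKM in Δ*gul*-*1*, against 33 reads and 0.940 RPKM in WT. Its ratio was 37.9 (interval 26.8 to 55.3), the highest of the 4409 genes compared. This ratio rests on few WT reads: with 1 RPKM added to both values it was 18.9. NCU01402, a second indoleamine 2,3-dioxygenase gene (chromosome V, bases 3935439 to 3937165), had 1151 reads and 36.5 RPKM in Δ*gul*-*1*, against 73 reads and 2.30 RPKM in WT. Its ratio of 15.9 (12.5 to 20.4) ranked 3. Both dioxygenase genes thus lay close together in Δ*gul*-*1*, among the more expressed genes, and low in the WT library. In Δ*gul*-*1* 72.7% and 73.4% of all genes had a lower RPKM than NCU09184 and NCU01402, against 17.1% and 22.8% in WT.

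The kynureninase gene NCU09183 (chromosome III, bases 277684 to 279201) acts further along the same route. Its reads numbered 1474, with 49.7 RPKM, in Δ*gul*-*1*, against 331 reads and 11.1 RPKM in WT, a ratio of 4.48 (3.97 to 5.06). It had the highest WT level of the 6 genes and the smallest ratio of the 3 tryptophan genes.

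On the tyrosine side, NCU01830, for the enzyme that makes homogentisate (chromosome II, bases 2262620 to 2264382), had 2268 reads and 63.2 RPKM in Δ*gul*-*1*, against 321 reads and 8.90 RPKM in WT. Its ratio was 7.11 (6.32 to 8.01), and it was the most abundant of the 6 transcripts per length in Δ*gul*-*1*. NCU05499, for the ring-opening homogentisate 1,2-dioxygenase (chromosome VI, bases 1717790 to 1719740), had 1866 reads and 48.5 RPKM in Δ*gul*-*1*, against 422 reads and 10.9 RPKM in WT, a ratio of 4.45 (4.0 to 4.96). NCU05537, for the fumarylacetoacetase of the last step (chromosome VI, bases 1585605 to 1587228), had 1111 reads and 35.1 RPKM in Δ*gul*-*1*, against 314 reads and 9.86 RPKM in WT. Its ratio of 3.56 (3.14 to 4.05) was the smallest of the 6 and ranked 51. Since these genes were picked on these ratios, nothing is read from the order of the ratios along the route. The aminotransferase genes of the step before NCU01830, NCU03756 and NCU09116, had lower ratios of 0.767 and 1.81.

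**Figure D1:**
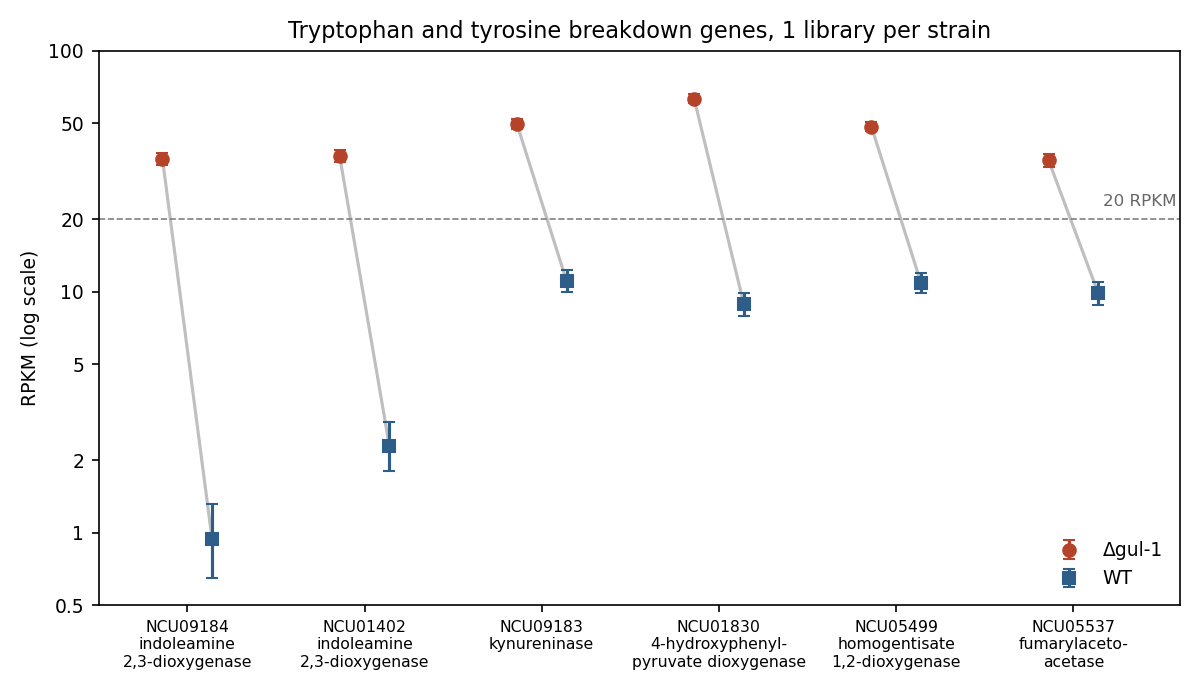
RPKM (log axis) of the 6 breakdown genes in the Δ*gul*-*1* library (circles) and the WT library (squares), with exact 95% Poisson intervals from the reads as bars. The Δ*gul*-*1* values lie between 35.1 and 63.2 RPKM and the WT values between 0.940 and 11.1 RPKM, and the dashed line is the 20 RPKM floor.

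Among the 6 genes the highest RPKM was 1.80 times the lowest in Δ*gul*-*1* and 11.8 times the lowest in WT, a description of levels that the choice of the genes and the floor both restrict. In Δ*gul*-*1* the order from high to low was NCU01830, NCU09183, NCU05499, NCU01402, NCU09184 and NCU05537, in which NCU09183 and NCU05499, and also the last 3, had overlapping intervals of the level. In WT the order was NCU09183, NCU05499, NCU05537, NCU01830, NCU01402 and NCU09184. There the dioxygenase genes of the first tryptophan step stood apart from the other 4, which were between 8.90 and 11.1 RPKM with overlapping intervals between neighbours in the order. The intervals of NCU01402 and NCU09184 did not overlap.

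Summed over the 6 genes, the RPKM was 268.6 in Δ*gul*-*1* and 43.99 in WT, a ratio of 6.11. Together they took 9113 reads, or 0.0448% of the library, in Δ*gul*-*1* and 1494 reads, or 0.00730%, in WT. Their median log2 ratio was 2.50, beside 0.11 for all 4409 genes compared. All 6 counting intervals lay wholly beyond 2-fold, as did those of 141 of the 4409 genes (3.2%). Because WT levels were under the floor for all 6, each passed the filter through Δ*gul*-*1* alone and had to be higher there to be compared at all. For this reason a second background was taken from WT: of the 2581 genes whose WT level lay between those of NCU09184 and NCU09183, 48 (1.86%) were above 20 RPKM in Δ*gul*-*1*, and 258 (9.996%) had a ratio of at least 2. The 6 genes themselves are included in the 2581, the 48 and the 258. Since the 6 genes were chosen on these ratios, nothing further is read from either share.

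**Figure D2:**
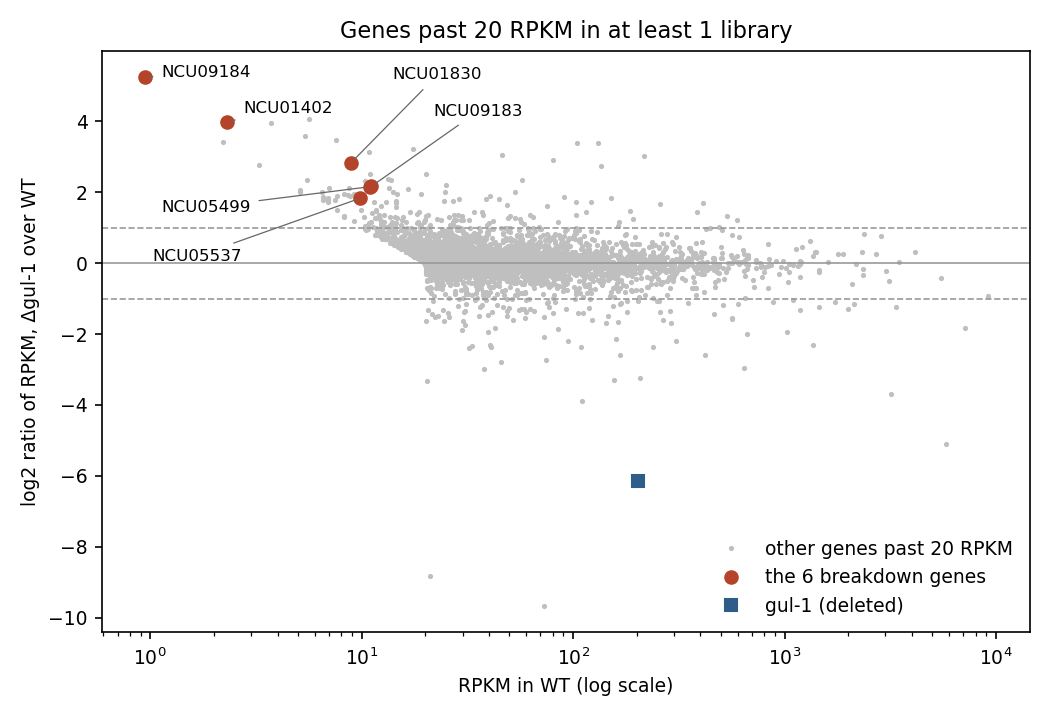
Log2 ratio of RPKM (Δ*gul*-*1* over WT) against RPKM in WT (log axis) for the 4409 genes above 20 RPKM in at least 1 library, with dashed lines at 2-fold. The 6 breakdown genes lie at the low end of WT levels with log2 ratios of 1.83 to 5.24, and *gul*-*1* (square) lies at -6.14; the sloping lower left edge is made by the 20 RPKM floor.

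The genes nearest to the 6 in ratio were of mixed annotation. NCU08192, a hydrophobin gene, stood between both dioxygenase genes with 94.3 RPKM in Δ*gul*-*1* and 5.65 RPKM in WT (ratio 16.7), and NCU09046, of unknown function, was just under NCU01402 (57.9 and 3.74 RPKM, ratio 15.5). NCU01830 lay between NCU00607, of unknown function (601.5 and 80.7 RPKM, ratio 7.45), and the cytochrome P450 gene NCU05848 (22.2 and 3.27 RPKM, ratio 6.79). The kynureninase gene NCU09183 and the homogentisate dioxygenase gene NCU05499 were next to each other, with NCU08037 just above (ratio 4.56) and NCU08775 just under them (ratio 4.37), both of unknown function. NCU05537 stood between NCU08756, of unknown function (ratio 3.58), and *gh10*-*1*, a glycosylhydrolase gene of family 10 (ratio 3.54), which was far more abundant at 535.3 RPKM in Δ*gul*-*1* and 151.3 RPKM in WT.

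Some enzymes of these routes are annotated at more than 1 locus, and the other copies had other values. The chosen copies were picked for their rise, so their contrast with the other copies follows from the choice and nothing is read from it. NCU05752, the remaining indoleamine 2,3-dioxygenase gene (chromosome VII, bases 3709837 to 3712768), had 932 reads and 15.6 RPKM in Δ*gul*-*1*, against 975 reads and 16.3 RPKM in WT, a ratio of 0.962 (0.878 to 1.05). Its interval included 1 with the deposited scaling, while with TMM the ratio was 0.867. Of the 3 indoleamine 2,3-dioxygenase genes it therefore had the highest level in WT and the lowest in Δ*gul*-*1*. It made up 17.8% of their summed RPKM in Δ*gul*-*1* (87.7 RPKM) and 83.4% in WT (19.5 RPKM). NCU09184 made up 40.6% in Δ*gul*-*1* and 4.82% in WT, and NCU01402 41.6% in Δ*gul*-*1* and 11.8% in WT.

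The second kynureninase gene, NCU00463 (chromosome III, bases 3953509 to 3955677), had 622 reads and 15.1 RPKM in Δ*gul*-*1*, against 471 reads and 11.3 RPKM in WT, a ratio of 1.33 (1.18 to 1.5). The 2 kynureninase genes were thus at nearly the same level in WT, and NCU09183 made up 76.7% of their summed RPKM in Δ*gul*-*1* (64.8 RPKM) and 49.4% in WT (22.4 RPKM). The change in these shares too follows from the choice of NCU09183. Reads were counted where they mapped to a single gene, and how far copies of the same annotation share sequence was not examined here.

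**Figure D3:**
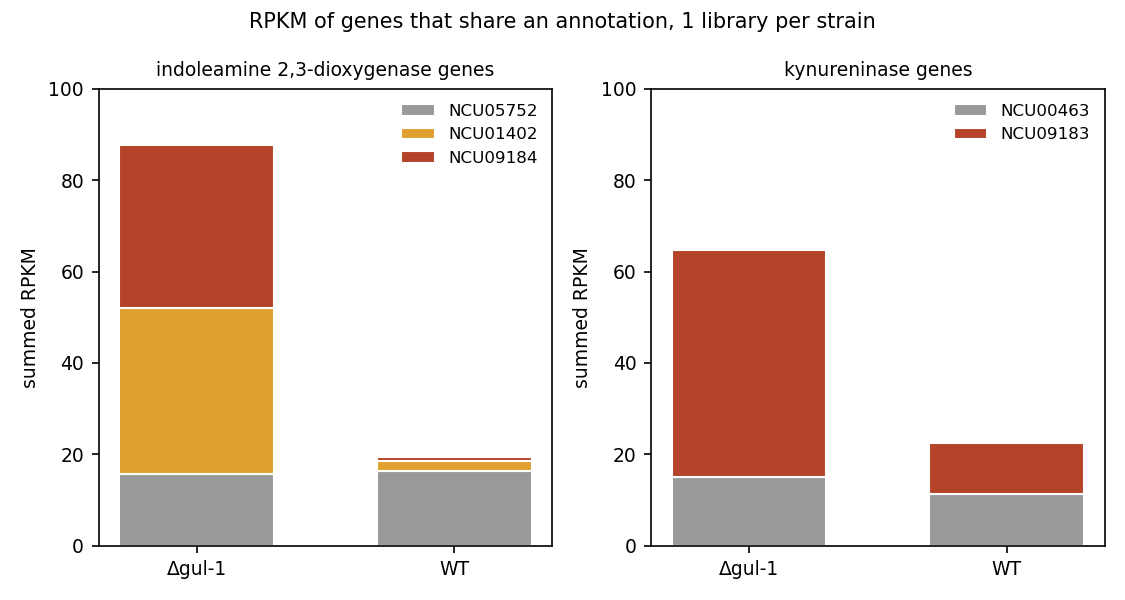
Summed RPKM of the 3 genes annotated as indoleamine 2,3-dioxygenase (left) and the 2 annotated as kynureninase (right), stacked by gene, in Δ*gul*-*1* and WT. The grey segments, NCU05752 and NCU00463, differ little between the libraries (15.6 and 16.3 RPKM, 15.1 and 11.3 RPKM), and the coloured segments carry most of the difference in the sums. The coloured genes were chosen for their rise, so this contrast follows from the choice.

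Of the 7 genes whose annotations place them in the kynurenine route, 4 were above the floor and 3 were higher, which were the 3 chosen ones. Of all genes compared 3.88% were higher, and the count of 3 follows from the choice. The other 4 all had ratios within 2-fold, and of them only NCU03282 was above the floor. NCU03282 (3-hydroxyanthranilate 3,4-dioxygenase), which acts after kynureninase on the way to NAD, was at 47.8 RPKM in Δ*gul*-*1* and 42.8 RPKM in WT, a ratio of 1.12 (1.02 to 1.22). NCU06924 (kynurenine 3-monooxygenase), which hydroxylates kynurenine, was at 14.1 RPKM in Δ*gul*-*1* and 17.5 RPKM in WT, a ratio of 0.807 (0.718 to 0.906). Together with NCU05752 and NCU00463 these genes summed to 92.6 RPKM in Δ*gul*-*1* and 87.8 RPKM in WT, a ratio of 1.05.

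Of the 8 genes annotated for tyrosine and phenylalanine breakdown, 5 were above the floor and 3 were higher, again the chosen ones. This count too follows from the choice, beside 3.88% higher of all genes compared. Neither aminotransferase of the step before NCU01830 reached a ratio of 2. NCU09116 (Aro8) had 13.5 RPKM in Δ*gul*-*1* and 7.49 RPKM in WT, a ratio of 1.81 (1.64 to 2.00), under the floor in both libraries, and NCU03756 (aromatic amino acid aminotransferase 1) had 28.0 RPKM in Δ*gul*-*1* and 36.6 RPKM in WT, a ratio of 0.767. The phenylalanine ammonia-lyase gene NCU09391 had 8.02 RPKM in Δ*gul*-*1* and 5.98 RPKM in WT (ratio 1.34, under the floor). The genes annotated as fumarylacetoacetate hydrolase, whose name resembles that of NCU05537, were also within 2-fold. NCU07506 had 23.0 RPKM in Δ*gul*-*1* and 22.7 RPKM in WT (ratio 1.02), and NCU08018 had 11.8 RPKM in Δ*gul*-*1* and 7.96 RPKM in WT (ratio 1.49, under the floor). These 5 genes summed to 84.5 RPKM in Δ*gul*-*1* and 80.6 RPKM in WT. No annotation in the table named maleylacetoacetate, the substrate of the isomerization between NCU05499 and NCU05537.

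**Figure D4:**
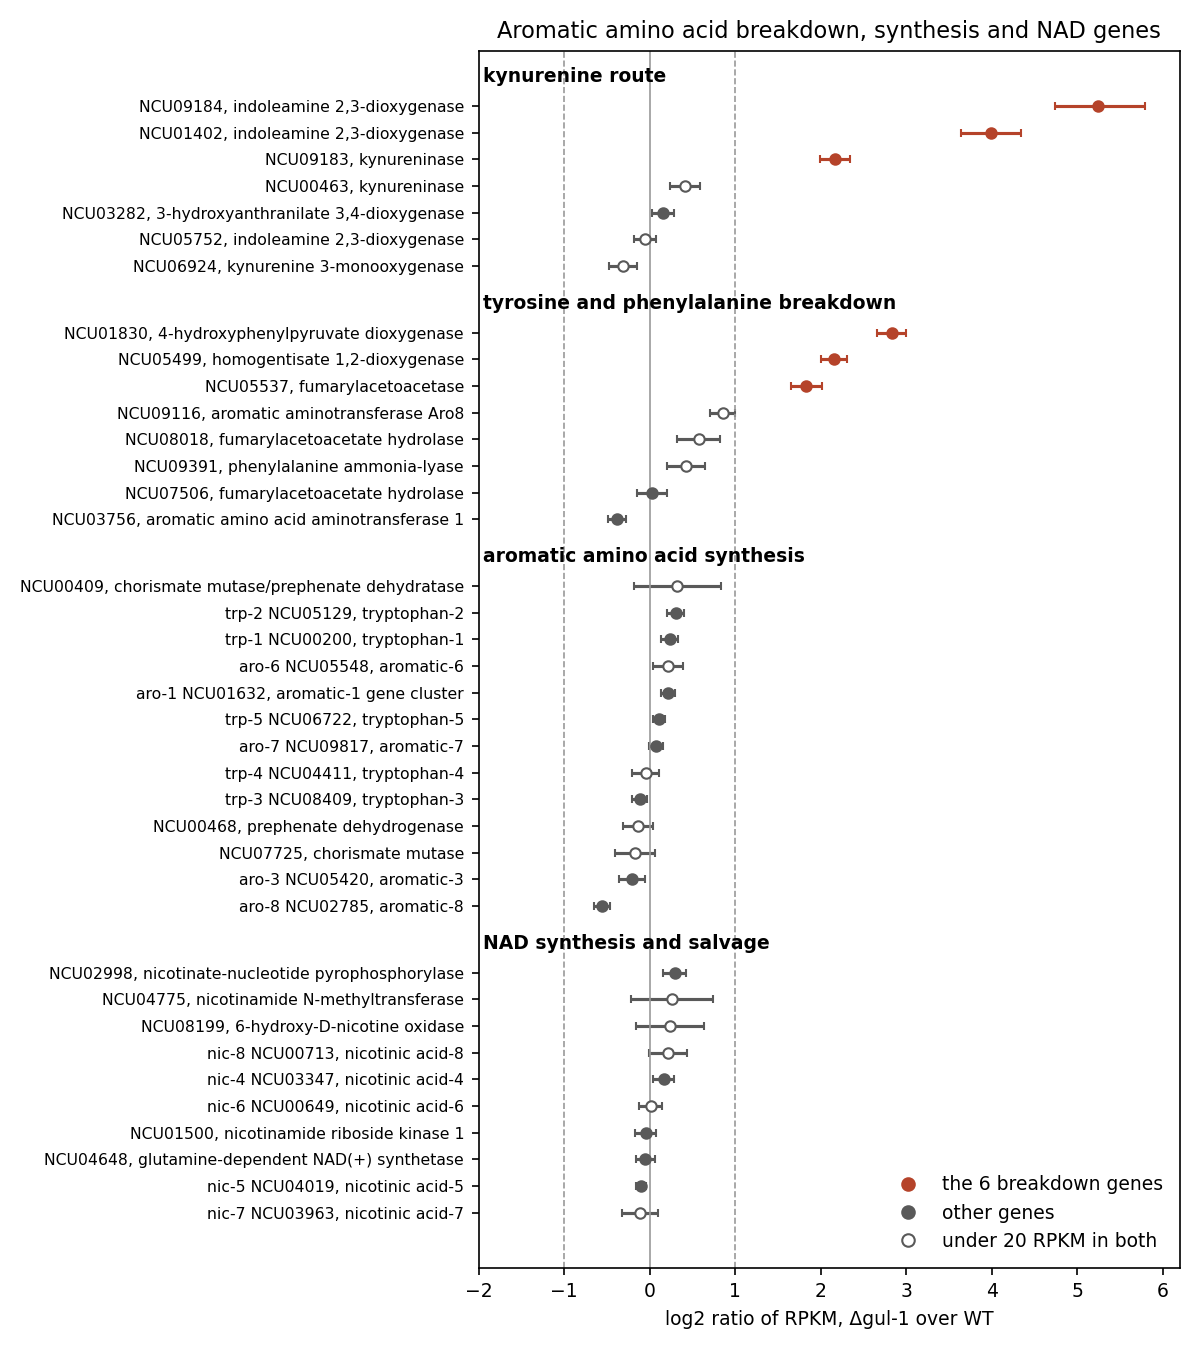
Log2 ratio of RPKM (Δ*gul*-*1* over WT) with counting intervals for each gene of 4 annotation lists, with dashed lines at 2-fold and open circles for genes at or under 20 RPKM in both libraries. The 6 chosen genes lie at 1.83 or more, and every other gene shown lies between -0.55 and 0.86.

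Of the 13 genes matched by annotation words for aromatic amino acid synthesis, 8 were above the floor, and none of these was higher or lower. Of all genes compared 3.88% were higher and 2.63% lower, so a list this short can hold none, and nothing is read from it. Not every matched gene need encode an enzyme of synthesis. The summed RPKM of the 13 was 348.3 in Δ*gul*-*1* and 349.5 in WT. Among the 8 above the floor, the gene farthest from 1 was *aro*-*8*, at 36.0 RPKM in Δ*gul*-*1* and 52.8 RPKM in WT (log2 ratio -0.55), followed by *trp*-*2* (log2 ratio 0.31), *trp*-*1* (0.23) and *aro*-*1* (0.21). The 10 genes of NAD synthesis and salvage, to which the kynurenine route leads, summed to 246.9 RPKM in Δ*gul*-*1* and 243.2 RPKM in WT. All 5 above the floor were within 2-fold, with log2 ratios from -0.10 for *nic*-*5* to 0.29 for the nicotinate-nucleotide pyrophosphorylase gene NCU02998. The limit of a short list holds here as well. *nic*-*4* was at 0.16 and the NAD synthetase gene NCU04648 at -0.05.

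The products of the tyrosine route are used further by enzymes of central metabolism. Among 6 genes matched by name for the onward use of fumarate and acetoacetate, which include both fumarylacetoacetate hydrolases, 4 were above the floor and all 4 were within 2-fold. With 3.88% of all genes compared higher and 2.63% lower, nothing is read from this count. The fumarate reductase gene Osm1 (NCU02580) had 441.9 RPKM in Δ*gul*-*1* and 292.0 RPKM in WT, a ratio of 1.51. The 3-ketoacid transferase gene NCU06881, whose enzyme activates acetoacetate, had a ratio of 1.33, and the acetoacetyl-CoA synthase gene NCU01378 had a ratio of 1.20.

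Beyond these routes, a list of 31 genes for the use of other aromatic rings, which by its matching words also contained NCU05499, had 30 other genes, of which 11 were above the floor and 1 was higher. This was the quinate permease gene NCU06138, at 54.3 RPKM in Δ*gul*-*1* and 22.8 RPKM in WT, a ratio of 2.39 (2.21 to 2.57). Of all genes compared, 3.88% were higher. The phenylacetyl-CoA ligase gene NCU00677 had a ratio of 1.93, at 50.8 RPKM in Δ*gul*-*1* and 26.3 RPKM in WT. The ring-opening dioxygenase gene NCU02028 had a ratio of 1.39, and *qa*-*Y*, the quinate permease gene of the quinate cluster, 1.34.

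Among the 18 other dioxygenase genes, 4 were above the floor. Of these 1 was higher and 1 lower, beside 3.88% higher and 2.63% lower of all genes compared. NCU06416 (thymine dioxygenase) was higher, at 34.1 RPKM in Δ*gul*-*1* and 9.47 RPKM in WT, a ratio of 3.60 (3.16 to 4.10). NCU01849 (extracellular dioxygenase) was lower, at 2.04 RPKM in Δ*gul*-*1* and 20.3 RPKM in WT. The nitropropane dioxygenase gene *npd*-*2* lay at the threshold, with 95.7 RPKM in Δ*gul*-*1* and 47.9 RPKM in WT (log2 ratio 1.00, just under 2-fold), and *npd*-*1* was at 209.1 RPKM in Δ*gul*-*1* and 139.1 RPKM in WT. Over the whole list the median log2 ratio was 0.86, beside 0.15 for the 8985 genes with reads in both libraries. For the 4 above the floor it was 0.79, beside 0.11 for all genes compared.

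Among 14 other aminotransferase genes, 10 were above the floor and 1 was higher, NCU08011, at 22.5 RPKM in Δ*gul*-*1* and 6.57 RPKM in WT, a ratio of 3.42 (3.00 to 3.92). Its annotation names no substrate, and the share higher among all genes compared was 3.88%. The branched-chain aminotransferase gene NCU00792 (log2 ratio -0.57), the ornithine transaminase gene *ota* (0.55) and the aspartate aminotransferase gene NCU07941 (0.28) were within 2-fold.

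The breakdown of other amino acids had 23 genes, of which 16 were above the floor, 6 were higher and 1 was lower, where 3.88% of all genes compared were higher and 2.63% lower. Their median log2 ratio was 0.58, beside 0.11 for all genes compared. *aga*-*1* (arginase-1) had 72.9 RPKM in Δ*gul*-*1* and 28.5 RPKM in WT, a ratio of 2.56. The branched-chain keto acid dehydrogenase genes NCU03913 and NCU02704 had ratios of 2.44 and 2.40, and the proline oxidase gene NCU02936 a ratio of 2.23. The arginase gene NCU02084 was lower, at 120.7 RPKM in Δ*gul*-*1* and 254.2 RPKM in WT, so that both genes annotated as arginase differed in opposite directions. With TMM scaling 4 of this list were higher.

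The 6 genes lie on 4 chromosomes, and only NCU09183 and NCU09184 are next to each other, with 1798 bases between them in the RefSeq annotation of assembly NC12. NCU05537 and NCU05499 share chromosome VI with 130561 bases and 38 genes between them. No annotated gene overlaps any of the 6. Some neighbours are near, among them NCU09182 at 43 bases before NCU09183, NCU01403 at 55 bases after NCU01402 and NCU09185 at 83 bases after NCU09184. Use of strand in the counting is not given, so whether reads running past a gene's end were assigned by strand is unknown.

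Of 50 genes within 5 places of the 6 genes, 43 had reads in both libraries, with a median log2 ratio of 0.32. The median was 0.15 for all 8985 genes with reads in both libraries, and 0.31 for genes in the range of WT levels of the 6. Of the 43 neighbours, 15 were above the floor, 2 were higher and none was lower, where 3.88% of all genes compared were higher and 2.63% lower. The genes on either side of the pair on chromosome III were also above 1 in ratio: NCU09182, for a protein with a stress responsive A/B barrel domain, had 228.7 RPKM in Δ*gul*-*1* and 120.9 RPKM in WT (ratio 1.89), and NCU09185, of unknown function, had 14.5 RPKM in Δ*gul*-*1* and 5.15 RPKM in WT (ratio 2.81, under the floor). One place further out were NCU09181 (31 reads in Δ*gul*-*1* and 15 in WT) and NCU09186 (ratio 1.51). The median log2 ratio of the neighbours was 0.99 around NCU09184 and 0.79 around NCU09183, in windows that overlap.

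Around the single genes the nearest neighbours were closer to 1. On the 2 sides of NCU01402, *tob38*, for a mitochondrial outer membrane assembly protein, and NCU01403, for a GPI anchored protein, had ratios of 1.04 and 1.24. The next ones out, NCU01400 and NCU01404, had ratios of 1.23 and 1.01. Beside NCU01830, the TFIIH subunit gene NCU01831 had a ratio of 1.16, the histidine kinase gene *nik*-*2* 1.24 and NCU01828 1.39, while NCU01829 had no read in either library.

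On chromosome VI, the genes beside NCU05499 were NCU05500 (ratio 1.23), NCU05501 (1.33), NCU12104 (1.25) and NCU05498. The last was abundant, at 2874 RPKM in Δ*gul*-*1* and 2333 RPKM in WT, a ratio of 1.23. Beside NCU05537, NCU05536 had a ratio of 1.17 and NCU05535 of 1.88, NCU12099 had 28 reads in Δ*gul*-*1* and 13 in WT, and NCU05538 had no read in either library. The 2 neighbours counted as higher, chosen for mention after their values were seen, were NCU09187, the third gene after NCU09184, at 33.5 RPKM in Δ*gul*-*1* and 13.6 RPKM in WT (ratio 2.47), and NCU05534, the third after NCU05537, at 70.7 RPKM in Δ*gul*-*1* and 16.6 RPKM in WT (ratio 4.25).

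**Figure D5:**
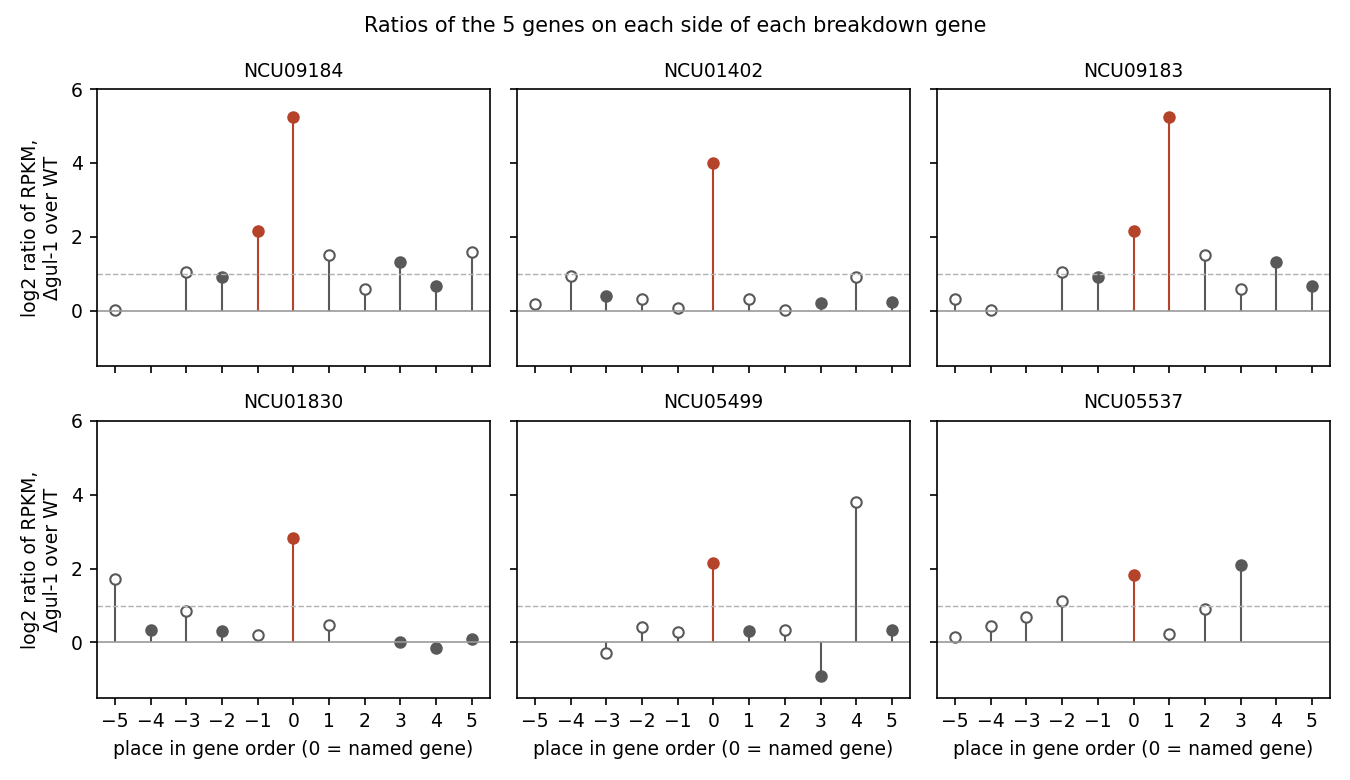
Log2 ratio of RPKM (Δ*gul*-*1* over WT) of the 5 genes on each side of each breakdown gene, in gene order along the chromosome, with open circles for genes at or under 20 RPKM in both libraries and no mark for genes without reads in a library. The breakdown genes (coloured) stand above their neighbours in 4 of 6 panels; around NCU05499 a gene with 4 reads in WT and around NCU05537 the gene NCU05534 are higher.

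Genes of conidiation, the formation of asexual spores from hyphae, also differed between the libraries. Of 8 conidiation genes 7 were above the floor, of which 1 was higher, 3 were lower and 3 were within 2-fold, and none was without reads. Of all genes compared, 3.88% were higher and 2.63% lower. The summed RPKM of the 8 was 1087 in Δ*gul*-*1* and 6922 in WT, of which the rodlet hydrophobin gene *eas* gave 169.0 in Δ*gul*-*1* and 5793 in WT. The regulator *fl* and the carotenoid gene *al*-*2* were lower as well (ratios 0.403 and 0.404), *con*-*6* was higher (2.06), *con*-*10*, *con*-*8* and *al*-*1* had ratios of 1.44, 0.724 and 0.895, and *con*-*13* was under the floor. Of the genes of sexual tissue, *app* was at 7.38 RPKM in Δ*gul*-*1* and 110.2 RPKM in WT, and *poi*-*2* had 15 reads in Δ*gul*-*1* and 17 in WT. The part of these differences in the values of the breakdown genes was not tested. In such bulk samples a change in the share of a cell type and a change of RNA per cell cannot be told apart.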

How the data were processed

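RNA-seq of *N. crassa* mycelia (1 Δ*gul*-*1* and 1 WT library, groups from the sample labels) was used. The deposited counts are reads that the authors mapped with TopHat2 2.0.8b and counted per gene with HTSeq 0.5.4p2 (versions from the submitters' processing notes; use of strand not given in the sources used here). The deposited RPKM values are the authors' reads per exon length, scaled to each library's depth (all reads assigned to genes); recomputing them from the counts left a largest gap of 9.1e-13. A column of the authors' NOISeq comparison was not used. Depth was 20341292 reads in Δ*gul*-*1* and 20461987 in WT.

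Ratios were taken of deposited RPKM, Δ*gul*-*1* over WT, with no pseudocount, for genes above 20 RPKM in at least 1 library. Exact 95% conditional binomial (Clopper-Pearson) intervals were computed from the reads. No test was possible with 1 library per strain. Gene lists were matched on words of the deposited annotation, so a list also holds what shares a word: the NAD list holds a 6-hydroxy-D-nicotine oxidase. Positions come from RefSeq assembly NC12 (9729 of 9730 loci matched). Named were *gul*-*1*, the 6 genes, every gene of both breakdown routes, up to 4 genes of each other list farthest from a ratio of 1 and above the floor, 2 neighbours on each side, the nearest genes in ratio, and cell type markers. The arginase gene NCU02084 was named outside this rule, as the lower gene of its list. The genes and lists were chosen with earlier results of these data known. Protein comparison and promoter motifs were not analysed here. Alternatives were other scalings (edgeR 4.0.16 TMM, median-of-ratios size factors, totals without the 50 most abundant genes), floors of 5, 50 and none, a pseudocount of 1 RPKM, and thresholds of 1.5-fold and 3-fold. Python 3.11.15, pandas 2.3.3, scipy 1.17.1 and R 4.3.3 were used. The interval was tested on simulated data with counting error only, which it assumes, so that test does not cover spread between cultures.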

Additional observations from a re-analysis of the deposited data

How the results depend on the processing

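The count of 6 breakdown genes at least 2-fold higher was the same under all scalings, with a pseudocount, at 1.5-fold and 3-fold, with a floor of 5 RPKM, with no floor, and with intervals wholly beyond 2-fold; with a floor of 50 RPKM, which leaves only NCU01830, it was 1, with 0 in the kynurenine route and 1 in the tyrosine list. The lowest ratio of any of the 6 was 3.21 (NCU05537, TMM). With 1 RPKM added, NCU09184 was at 18.9 and NCU01402 at 11.4. The ratio of their summed RPKM was 5.50 with TMM and with median-of-ratios size factors, and 5.49 with the pseudocount. Of all genes, 317 were higher with a floor of 5, 87 were higher and 75 lower with a floor of 50, 735 and 249 with no floor, 476 and 254 at 1.5-fold, and 72 and 43 at 3-fold. TMM gave 137 higher and 151 lower, and totals without the 50 most abundant genes 156 and 127.

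With a floor of 5, 4 other dioxygenases and 2 other aminotransferases were higher. With a floor of 50, the counts were 1 for other aromatic ring use, 0 higher and 0 lower for other dioxygenases, 0 for other aminotransferases and 1 higher for the breakdown of other amino acids. With no floor, 6 of the ring use list (the chosen NCU05499 among them), 6 other dioxygenases and 2 other aminotransferases were higher. At 1.5-fold, 3 other dioxygenases and 1 gene of onward use were higher. At 3-fold, 1 gene of ring use, which was the chosen NCU05499, and 0 higher and 0 lower of the breakdown of other amino acids passed. These shifts follow from how many genes each floor or threshold admits. No paired analysis was possible because each strain had 1 library. Spread between cultures is unknown. The WT values of NCU09184 and NCU01402 rest on 33 and 73 reads.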

Other observations

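The values below, many of them under the 20 RPKM floor, were picked after they were seen and are given with no explanation. NCU06964, annotated as a TauD family dioxygenase, had 475 reads in Δ*gul*-*1* and 29 in WT (18.1 RPKM in Δ*gul*-*1*). The 14 other dioxygenase genes under the floor had a median log2 ratio of 0.86, beside 0.22 for the 4576 genes under the floor with reads in both libraries. The 7 genes of the quinate cluster include those for enzymes that convert quinate to protocatechuate, for a permease and for regulators. Of the 7 genes, 2 were above the floor. The ratios of the 7 ran from 1.15 to 3.86. Their median log2 ratio was 0.42, beside 0.15 for the 8985 genes with reads in both libraries. The largest was that of *qa*-*3*, for quinate dehydrogenase, with 142 reads in Δ*gul*-*1* and 37 in WT.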
